A study of Oryctolagus cuniculus with 6 samples.

Results

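The genes described here are 10 genes of the NRF2 pathway and of the heme oxygenase and redox response, out of 28788 genes in the deposited tables. They were chosen by symbol, not by their values: the transcription factor gene NFE2L2 (the gene of NRF2), its regulators KEAP1 and BACH1, and the redox genes HMOX1, HMOX2, NQO1, TXNRD1, TXN, SRXN1 and BLVRB. All 10 were found in both tables, and all 10 had enough counts to be tested. The samples were 3 normal retinas and 3 retinas with proliferative vitreoretinopathy (PVR) from rabbits. To make the model, the sclera of adult rabbits was punctured, some vitreous was withdrawn, and platelet-rich plasma was injected in its place. The sources used here give no strain, sex, time after injection or treatment of the normal eyes, and they do not say whether the samples came from separate animals, so that p-values measure only the spread between these samples. Polyadenylated RNA of the retina was sequenced.

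NRF2 is a transcription factor that turns on genes against oxidants and electrophiles. KEAP1 holds NRF2 in the cytoplasm and marks it for degradation through an E3 ligase built on cullin 3, and oxidants disable KEAP1, so that NRF2 reaches the nucleus. There it pairs with small MAF proteins, whereas BACH1 occupies the same DNA sites as a repressor until heme removes it. Much of this control acts on the proteins, which RNA sequencing does not measure. Among the targets, heme oxygenase cleaves heme into biliverdin, iron and carbon monoxide, NQO1 reduces quinones, and thioredoxin and its reductase keep protein thiols reduced.

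Between 31904593 and 43035080 reads were counted per sample. SAG, the arrestin of rods and a marker of the labelled tissue, had an FPKM between 1341 and 1869 in the 6 samples, in which FPKM is the count divided by gene length and sequencing depth. Normal replicate 2 stood apart by its lens genes, which summed to an FPKM of 35107 there, to 13.2 and 16.2 in the other normal samples and to between 283 and 331 in PVR. Counts of the groups were compared by the quasi-likelihood test of edgeR, p-values were adjusted after Benjamini and Hochberg over the 18697 genes tested, and log2 fold changes are PVR over normal. An adjusted p under 0.05 was reached by 318 genes (1.70% of those tested, 1.09% higher in PVR and 0.615% lower), and 1.01% also had a log2 fold change beyond 1.

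None of the 10 genes passed the adjusted p of 0.05 in edgeR, against the background of 1.70% (1.09% higher, 0.615% lower, and 1.01% with a log2 fold change beyond 1). At an unadjusted p under 0.05 there were 3 of the 10, against 21.2% of all genes tested. Of these, NFE2L2 and HMOX1 were higher in PVR, against 11.3% of all genes, and KEAP1 was lower, against 9.94%. The median log2 fold change of the 10 genes was 0.01, with 5 fitted values above 0 and 5 below, and that of all genes tested was -0.01. HMOX1 had the largest fitted difference, 2.43-fold higher in PVR, and the other 9 genes had fitted folds between 0.798 and 1.18. For these 9 the 95% interval of the log2 fold change, which is not adjusted for the number of genes, lay between -1 and 1. With limma-voom and with limma on either FPKM scale the count was also 0. With DESeq2 it was 1: KEAP1 on the same genes, and HMOX1 when all genes with a count were tested. The background of DESeq2 was also higher than that of edgeR. It called 1798 of the same 18697 genes, and 1756 of the 24960 genes with a count.

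**Figure D1:**
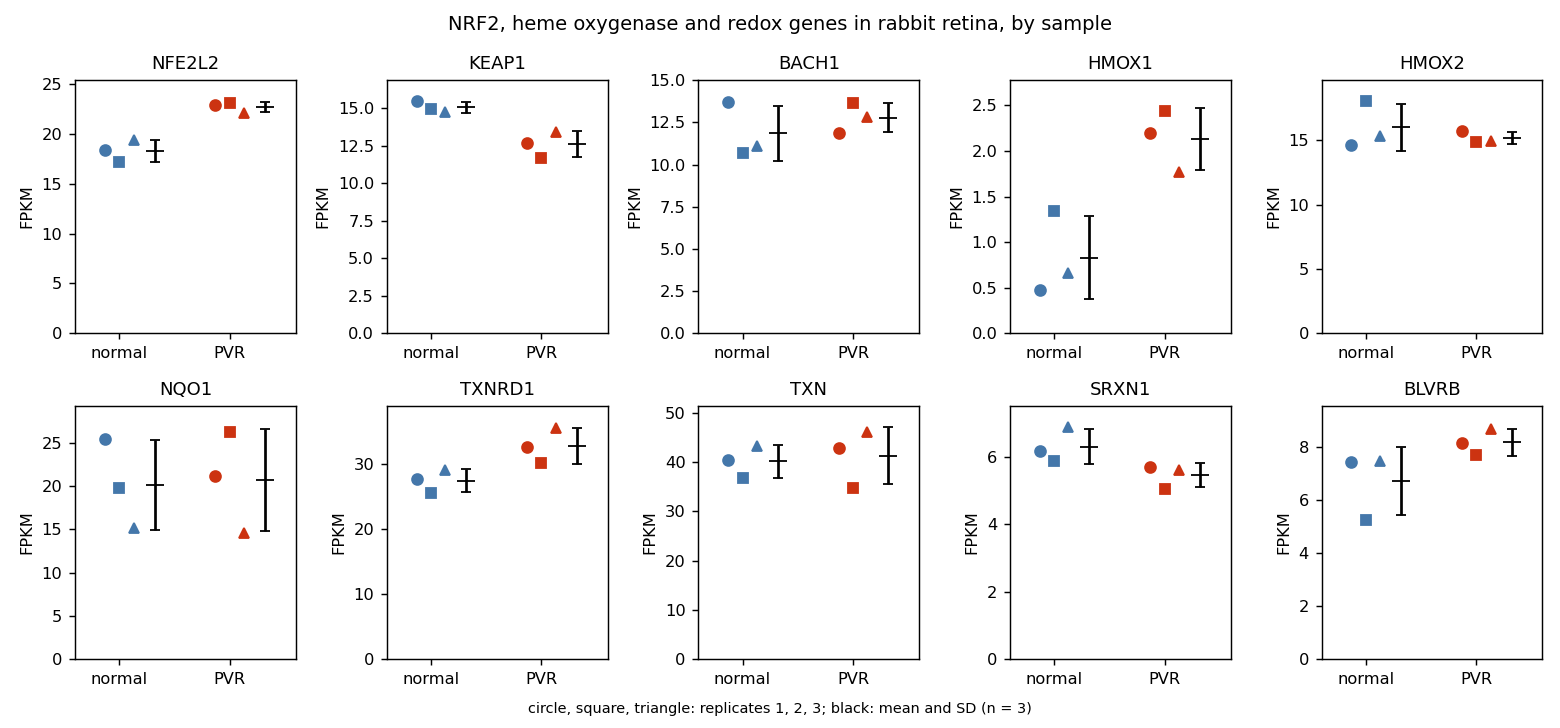
FPKM of the 10 genes (vertical axes from 0, a scale for each gene) in the 3 normal and the 3 PVR samples, each point 1 sample, with the mean and SD of each group in black. The PVR points of NFE2L2 and HMOX1 lie above every normal point, those of KEAP1 and SRXN1 lie below, and the points of NQO1 and TXN overlap.

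NFE2L2 had FPKM values of 18.4, 17.1 and 19.4 in normal retina and of 22.9, 23.1 and 22.1 in PVR. The groups did not overlap, and each was tight, with a highest sample 1.13 times the lowest in the normal group and 1.05 times in PVR. The mean was 18.3 ± 1.12 (SD, n = 3) in normal retina and 22.7 ± 0.536 (SD, n = 3) in PVR. The log2 fold change was 0.24 (standard error 0.07, 95% interval 0.09 to 0.40), which is 1.18-fold, with an edgeR adjusted p of 0.109. Over the 16 alternative settings the log2 fold change stayed between 0.22 and 0.31 and the adjusted p between 0.0678 and 0.368.

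KEAP1, the adaptor through which NRF2 is degraded, had FPKM values of 15.5, 14.9 and 14.7 in normal retina and of 12.7, 11.7 and 13.4 in PVR. Every PVR sample was below every normal sample. PVR over normal, the log2 fold change was -0.33 (standard error 0.09, 95% interval -0.53 to -0.12), or 0.798-fold, with an edgeR adjusted p of 0.106. The adjusted p was 0.0481 with DESeq2 on the same genes and 0.0693 with DESeq2 on all genes with a count. In edgeR it was up to 0.353 when a sample was left out.

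BACH1, the heme-sensitive repressor of HMOX1, had FPKM values of 13.7, 10.7 and 11.1 in normal retina and of 11.9, 13.7 and 12.8 in PVR. The groups overlapped, since normal replicate 1 was the highest of all 6 samples. The log2 fold change was 0.04 (standard error 0.11, 95% interval -0.22 to 0.29, edgeR adjusted p = 0.854).

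Since NFE2L2 and KEAP1 lay on opposite sides of 0, their ratio within each sample was formed, a measure chosen after the values were seen and given without a test. It does not depend on how the samples are scaled to each other. The FPKM of NFE2L2 over that of KEAP1 was 1.19, 1.15 and 1.32 in normal retina and 1.81, 1.98 and 1.65 in PVR. The mean ratio was 1.22 ± 0.0873 (SD, n = 3) in normal retina and 1.81 ± 0.164 (SD, n = 3) in PVR. The groups could not overlap, since NFE2L2 was higher and KEAP1 lower in every PVR sample. This separation therefore adds nothing to the values of the single genes. The ratio of NFE2L2 to BACH1 overlapped, with values from 1.34 to 1.74 in normal retina and from 1.69 to 1.93 in PVR.

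**Figure D2:**
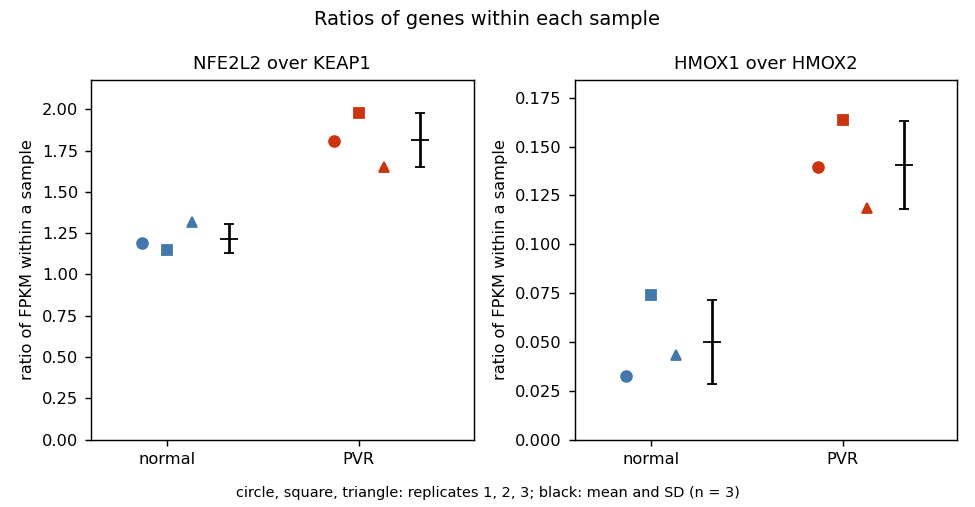
Ratio of the FPKM of NFE2L2 to that of KEAP1 (left) and of HMOX1 to HMOX2 (right) within each of the 3 normal and 3 PVR samples, with the mean and SD of each group in black. In both panels the 3 PVR points lie above the 3 normal points. On the left this follows from the single genes, since NFE2L2 was higher and KEAP1 lower in every PVR sample.

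HMOX1, the inducible heme oxygenase, was the least abundant of the 10 genes. It had 28, 82 and 40 counts in normal retina and 105, 118 and 114 in PVR. These correspond to FPKM values of 0.480, 1.34 and 0.666 in normal retina and of 2.20, 2.43 and 1.77 in PVR. The groups did not overlap, but the normal samples were 2.80-fold apart, with the highest value in normal replicate 2, the sample with the lens genes, whereas the PVR samples were 1.38-fold apart. Counting error alone gave exact 95% Poisson intervals of 18.6 to 40.5 around the lowest count and 97.7 to 141 around the highest, and such intervals cover counting error only. PVR over normal, the log2 fold change was 1.28 (standard error 0.42, 95% interval 0.29 to 2.26), with a p of 0.0176 before adjustment and an edgeR adjusted p of 0.155. With a sample left out, the log2 fold change was highest without normal replicate 2, at 1.84 (edgeR adjusted p = 0.122). It was lowest without normal replicate 1, at 1.01 (edgeR adjusted p = 0.303). The largest edgeR adjusted p was 0.393, without PVR replicate 1. On the log2(FPKM + 1) scale, which compresses genes of low level, the log2 fold change was 0.80. With DESeq2 the adjusted p was 0.0554 on the filtered genes and 0.0495 on all genes with a count.

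HMOX2, the constitutive heme oxygenase, was at a level well above that of HMOX1 in both groups. Its FPKM values were 14.6, 18.1 and 15.4 in normal retina and 15.7, 14.9 and 14.9 in PVR. The groups overlapped, and the normal samples were the more spread of them. The log2 fold change was -0.15 (standard error 0.12, 95% interval -0.44 to 0.14, edgeR adjusted p = 0.504). HMOX1 made up 3.17%, 6.91% and 4.16% of the summed FPKM of both heme oxygenases in normal retina and 12.2%, 14.1% and 10.6% in PVR. Most heme oxygenase RNA was therefore HMOX2 in all 6 samples, with a larger part from HMOX1 in each PVR sample than in any normal sample. This share was also formed after the values were seen.

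BLVRB, a biliverdin and flavin reductase, had FPKM values of 7.42, 5.23 and 7.48 in normal retina and of 8.15, 7.68 and 8.68 in PVR. The FPKM values of the groups did not overlap, with normal replicate 2 as the lowest sample. In CPM with TMM factors (counts scaled for depth and RNA composition, not for length) the groups did overlap, at 9.17, 6.64 and 9.06 in normal retina and 9.60, 8.93 and 10.4 in PVR. PVR over normal, the log2 fold change was 0.22 (standard error 0.18, 95% interval -0.21 to 0.65, edgeR adjusted p = 0.513), and it was 0.09 without normal replicate 2.

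Genes of macrophages, cells that express HMOX1 when they take up heme, were measured beside it. All 15 tested genes of the macrophage and microglia list had a fitted log2 fold change above 0 (median 0.96), and 12 of the 15 had CPM values without overlap, with all PVR samples above the normal ones, against 13.4% of all genes tested. None of the 15 passed an adjusted p of 0.05 in edgeR, against 1.70% of all genes tested. An unadjusted p under 0.05 was found for 9, all higher in PVR, against 11.3% of all genes. Their summed FPKM was between 20.8 and 47.2 in normal retina and between 59.0 and 82.1 in PVR. In a bulk sample, more cells of a type and more RNA per cell cannot be told apart. CD163, the macrophage receptor for hemoglobin bound to haptoglobin, had FPKM values of 0.0759, 0.239 and 0.140 in normal retina and of 0.464, 0.384 and 0.550 in PVR (log2 fold change 1.54, edgeR adjusted p = 0.139). C1QA, the most abundant gene of the list, had overlapping groups (log2 fold change 0.66, edgeR adjusted p = 0.394). Within the normal group, HMOX1 was highest in replicate 2, where the summed macrophage level of 45.4 was close to the 47.2 of replicate 1. The part of macrophages in the HMOX1 values was not tested.

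Red blood cell genes were taken as markers of blood left in the tissue. How much blood the samples held was not tested. Of the 9 genes found, 4 could be tested. The 9 genes summed to an FPKM between 46.9 and 51.3 in normal retina and between 20.4 and 34.3 in PVR. HBA, the alpha globin and the most abundant of them, had 680, 741 and 845 counts in normal retina and 285, 229 and 518 in PVR (log2 fold change -1.08, edgeR adjusted p = 0.0613). EPB42, a protein of the red cell skeleton, was higher in every PVR sample instead, with FPKM values of 0.281, 0.379 and 0.233 in normal retina and of 0.444, 0.627 and 0.447 in PVR (log2 fold change 0.68, edgeR adjusted p = 0.288). The sum thus rests mostly on globin, and EPB42 was named after its values were seen. SLC4A1, the anion exchanger of the red cell membrane, had 0 counts in all samples but PVR replicate 2, which had 1. Of the platelet genes, TREML1 was at 0 in all samples, and the list summed to an FPKM between 3.23 and 6.55 in normal retina and between 5.18 and 6.84 in PVR. GP1BB, the most abundant platelet gene, had a log2 fold change of -0.08 (edgeR adjusted p = 0.926).

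Markers of other cells of the retina also moved with the groups. Among Mueller glia genes CLU, a secreted chaperone, rose by 1.07 on the log2 scale, GLUL, glutamine synthetase, fell by 1.11 and RLBP1, a retinoid carrier also listed for the pigment epithelium, fell by 0.89 (edgeR adjusted p = 0.00733, 0.0125 and 0.0294). These were 3 of the 8 genes of the list, against 1.70% of all genes tested. Fitted values of this list were above 0 for 3 genes, up to 1.39, and below 0 for 5. Its summed FPKM was between 1385 and 1714 in normal retina and between 1846 and 2003 in PVR. The retinal pigment epithelium genes LRAT and TTR, the oligodendrocyte genes MOBP, MAG and ERMN and the endothelial genes CDH5 and VWF were lower in PVR, with edgeR adjusted p between 0.0119 and 0.0478. With RLBP1, calls lower in PVR were 3 of 9 pigment epithelium genes, 3 of 10 oligodendrocyte genes and 2 of 10 endothelial genes. Over all genes tested, 0.615% were called lower. The oligodendrocyte list summed to an FPKM of 89.3, 209 and 449 in normal replicates 1, 2 and 3. In PVR its sum was between 54.1 and 58.0. The endothelial list did not go one way: 7 of its 10 genes had a fitted value below 0 and 3 above, and its summed FPKM, mostly from KDR and FLT1, was between 93.4 and 96.9 in normal retina and between 107 and 111 in PVR. KDR had a log2 fold change of 0.17 and FLT1 of 0.27 (edgeR adjusted p = 0.435 and 0.143). CRYAA of the lens list had a log2 fold change of -4.78 (edgeR adjusted p = 0.302), with its high level in normal replicate 2. The summed FPKM of the pigment epithelium list was between 177 and 318 in normal retina and between 98.1 and 122 in PVR, although BEST1 of that list was higher in every PVR sample (log2 fold change 0.53, edgeR adjusted p = 0.215). Of the 10 rod genes, 0 passed the adjusted p of 0.05 in edgeR and 5 had an unadjusted p under 0.05, all lower in PVR, against 9.94% of all genes. The fitted value was below 0 for 9 of the 10 (median -0.32), and 6 were lower in PVR without overlap in CPM, against 14.6% of all genes. FLT1, BEST1, CD163 and SAG were named after their values were seen. The part of these cells in the values of the 10 genes was not tested.

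**Figure D3:**
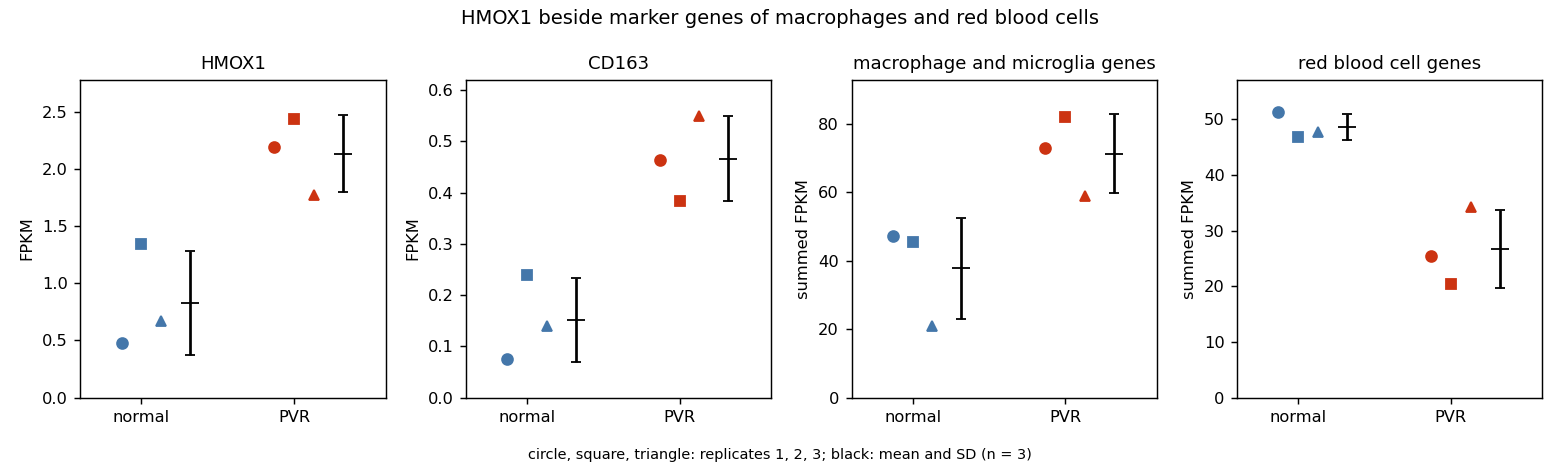
FPKM of HMOX1 and CD163, and summed FPKM of the macrophage and microglia list and of the red blood cell list (vertical axes from 0), in the 3 normal and 3 PVR samples, with the mean and SD of each group in black. HMOX1, CD163 and the macrophage sum are higher in every PVR sample than in every normal sample, and the red blood cell sum is lower in every PVR sample.

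NQO1, the quinone reductase that is often used as a readout of NRF2, did not separate the groups. Its FPKM values were 25.5, 19.7 and 15.2 in normal retina and 21.2, 26.3 and 14.5 in PVR. The samples of each group were spread widely, 1.68-fold in normal retina and 1.81-fold in PVR, more than the counting error of at most 3.46% per sample. The log2 fold change was -0.04 (standard error 0.25, 95% interval -0.63 to 0.55, edgeR adjusted p = 0.944). In folds this interval reached from 0.646 to 1.47.

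TXN, the cytosolic thioredoxin and the most abundant of the 10 genes, had FPKM values of 40.5, 36.7 and 43.3 in normal retina and of 42.9, 34.8 and 46.1 in PVR. PVR replicate 2 was the lowest and PVR replicate 3 the highest of all 6 samples, so that PVR enclosed the whole normal range. PVR over normal, the log2 fold change was -0.03 (standard error 0.14, 95% interval -0.35 to 0.30, edgeR adjusted p = 0.928).

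TXNRD1, the selenoenzyme that reduces thioredoxin with NADPH, had FPKM values of 27.7, 25.5 and 29.0 in normal retina and of 32.5, 30.2 and 35.6 in PVR. In FPKM the groups did not overlap, but in CPM with TMM factors PVR replicate 2, at 51.0, was just under normal replicate 3, at 51.1. The log2 fold change was 0.19 (standard error 0.09, 95% interval -0.03 to 0.41, edgeR adjusted p = 0.285).

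SRXN1, sulfiredoxin, which restores peroxiredoxins that have been overoxidized, was lower in every PVR sample than in every normal sample. Its FPKM values were 6.18, 5.87 and 6.88 in normal retina and 5.70, 5.06 and 5.63 in PVR. Its counts were low, between 136 and 229. PVR over normal, the log2 fold change was -0.28 (standard error 0.18, 95% interval -0.71 to 0.15, edgeR adjusted p = 0.416).

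**Figure D4:**
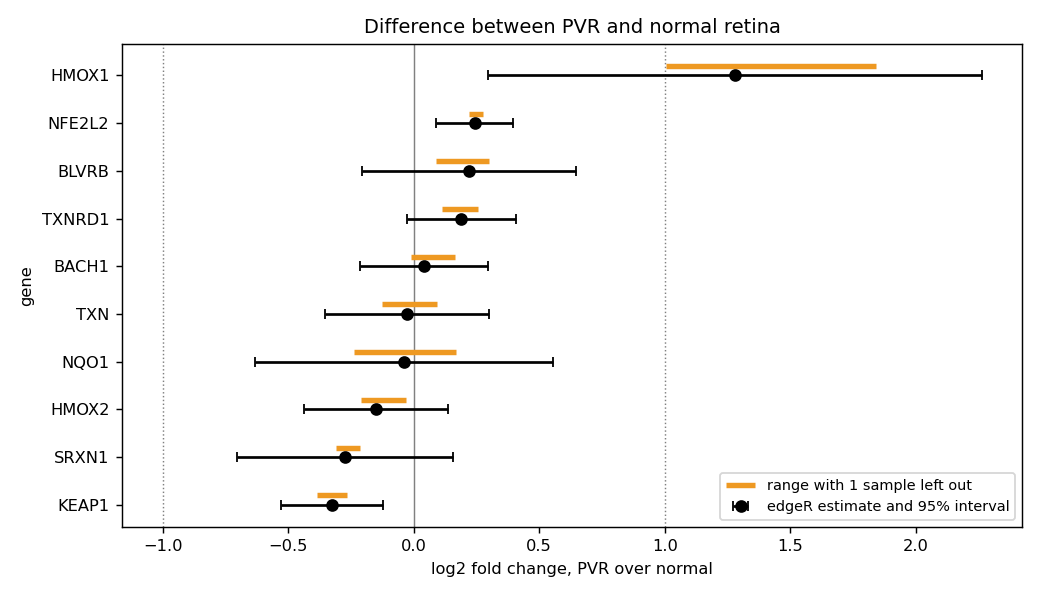
Log2 fold change of each of the 10 genes, PVR over normal, from edgeR (black points) with its 95% interval, and the range of the estimate when each sample was left out in turn (orange bars). HMOX1 lies furthest from 0 with the widest interval, 0.29 to 2.26, and only the intervals of HMOX1, NFE2L2 and KEAP1 do not include 0.

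Over the 10 genes, FPKM values in which the groups did not overlap were found for 6, of which 4 were higher in PVR (NFE2L2, HMOX1, TXNRD1 and BLVRB) and 2 lower (KEAP1 and SRXN1). Over all genes tested this was the case for 26.7%, with 17.0% higher in PVR and 9.69% lower. In CPM with TMM factors 4 of the 10 were without overlap, NFE2L2 and HMOX1 above and KEAP1 and SRXN1 below. Over all genes tested the share was 28.0%, with 13.4% higher and 14.6% lower.

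Levels of different genes can be set side by side in FPKM, since it is per length. In normal retina the order of the mean FPKM was TXN (40.1), TXNRD1 (27.4), NQO1 (20.1), NFE2L2 (18.3), HMOX2 (16.0), KEAP1 (15.0), BACH1 (11.8), BLVRB (6.71), SRXN1 (6.31) and HMOX1 (0.829). The ranges of NQO1 and NFE2L2, of NFE2L2 and HMOX2, of HMOX2 and KEAP1 and of BLVRB and SRXN1 overlapped, so these neighbours could not be ordered beyond their spread. In PVR the order was TXN (41.3), TXNRD1 (32.8), NFE2L2 (22.7), NQO1 (20.7), HMOX2 (15.2), BACH1 (12.8), KEAP1 (12.6), BLVRB (8.17), SRXN1 (5.46) and HMOX1 (2.13). There the ranges of TXN and TXNRD1, of NFE2L2 and NQO1, of NQO1 and HMOX2 and of BACH1 and KEAP1 overlapped. HMOX1 was last in both groups, with a mean above 27.3% of the genes tested in normal retina and above 38.7% in PVR, whereas TXN was above 92.3% and 92.7%.

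Other genes of the pathway were taken from 8 lists, of which 119 of 125 genes were found and 116 could be tested. NFE2L3 was higher and ME1 lower in PVR at an adjusted p under 0.05 in edgeR, 2 of 116, against the background of 1.70%. Both calls were fragile, with an adjusted p under 0.05 in 8 of 16 alternatives for NFE2L3 and in 4 of 16 for ME1. At an unadjusted p under 0.05 there were 32 of the 116 (27.6%), against 21.2% of all genes tested. The fitted log2 fold change was above 0 for 52 and below 0 for 64, with a median of -0.04.

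NFE2L3, a relative of NRF2 in the same family of transcription factors, had FPKM values of 7.75, 7.03 and 7.70 in normal retina and of 15.6, 17.5 and 11.1 in PVR. The PVR samples all lay above the normal ones, with PVR replicate 3 the nearest. NFE2L3 rose by 0.90 on the log2 scale (standard error 0.16), with an edgeR adjusted p of 0.0463. The call was kept without PVR replicate 3 (adjusted p = 0.0147) and lost without any of the other 5 samples, with an adjusted p of up to 0.243. The other 14 tested genes of the partners and turnover of NRF2 had adjusted p of 0.0846 or more. Of these, RBX1, the RING subunit of the KEAP1 ligase, had the smallest p and the highest level, with FPKM values of 140, 139 and 131 in normal retina and 112, 99.8 and 117 in PVR. Its scaffold CUL3 had a log2 fold change of -0.08 (edgeR adjusted p = 0.595).

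In the list of NADPH supply, 7 of 12 genes had an unadjusted p under 0.05, of which 6 were lower in PVR, against 21.2% of all genes tested in either direction and 9.94% lower. ME1, the cytosolic malic enzyme and a known NRF2 target, had FPKM values of 28.8, 29.9 and 36.4 in normal retina and of 24.0, 23.6 and 21.6 in PVR. It fell by 0.53 on the log2 scale (standard error 0.09, edgeR adjusted p = 0.0465), but with any sample left out the adjusted p was between 0.0521 and 0.228. Of the enzymes of the pentose phosphate pathway, fitted log2 fold changes were -0.22 for PGD, -0.37 for TALDO1 and -0.38 for TKT, with edgeR adjusted p between 0.0926 and 0.219. None of these 3 passed the adjusted p of 0.05, and PGD and TKT were lower in every PVR sample than in every normal sample. Mitochondrial ME2 was on the other side, with FPKM values of 29.9, 26.0 and 33.8 in normal retina and 49.5, 58.9 and 42.8 in PVR (log2 fold change 0.68, edgeR adjusted p = 0.0580). PGD, TALDO1 and ME2 were named after their values were seen.

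In the list of the thioredoxin and peroxiredoxin system, 0 of 22 genes passed the adjusted p of 0.05 in edgeR, against 1.70% of all genes tested. An unadjusted p under 0.05 was found for 7, of which 3 were higher and 4 lower, against 21.2% of all genes. PRDX2 and PRDX6 had the highest mean FPKM over the 6 samples, with PRDX1 close to PRDX6 and above it in normal retina (67.4 against 60.5). PRDX2 and PRDX6 had log2 fold changes of -0.01 and 0.31 (edgeR adjusted p = 0.980 and 0.251). Mitochondrial and peroxisomal PRDX5 had FPKM values of 54.7, 46.7 and 50.3 in normal retina and 35.8, 26.2 and 38.4 in PVR (log2 fold change -0.66, edgeR adjusted p = 0.0856). MSRB3, a methionine sulfoxide reductase, had the smallest p of the list, with a log2 fold change of 0.54 (edgeR adjusted p = 0.0757). PRDX5 was named after its values were seen.

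In the list of heme turnover, 0 of 15 genes passed, against 1.70% of all genes tested. At an unadjusted p under 0.05 there were 4, against 21.2% of all genes. BLVRA, the other biliverdin reductase, had FPKM values of 2.38, 2.55 and 2.12 in normal retina and 4.58, 6.05 and 2.59 in PVR. In FPKM every PVR sample was higher, by a narrow margin for PVR replicate 3. In CPM with TMM factors the groups overlapped, with PVR replicate 3 at 3.87 and normal replicate 2 at 4.04. The log2 fold change of BLVRA was 0.83 (edgeR adjusted p = 0.194). UROD, an enzyme of heme synthesis, had the smallest p, with a log2 fold change of -0.99 (edgeR adjusted p = 0.128). LRP1, the receptor for heme bound to hemopexin and the most abundant gene of the list, had a log2 fold change of -0.06 (edgeR adjusted p = 0.760). HP, haptoglobin, which binds free hemoglobin, varied 3.01-fold among the normal samples and 6.38-fold among the PVR samples, and the groups overlapped (log2 fold change 1.09, edgeR adjusted p = 0.370). BLVRA was named after its values were seen.

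In the list of glutathione synthesis and recycling, 0 of 14 genes passed, against 1.70% of all genes tested. At an unadjusted p under 0.05 there were 3 higher and 2 lower, against 11.3% and 9.94% of all genes. GPX4, the phospholipid peroxidase, was the most abundant, with FPKM values of 236, 227 and 151 in normal retina and 176, 143 and 191 in PVR, which overlapped (log2 fold change -0.34, edgeR adjusted p = 0.356). GPX1, the cytosolic peroxidase, did not overlap, with values of 29.9, 30.7 and 40.5 in normal retina and 48.6, 53.1 and 52.7 in PVR (log2 fold change 0.54, edgeR adjusted p = 0.0859). GCLC and GCLM, the subunits of the enzyme that starts glutathione synthesis and known NRF2 targets, lay on opposite sides, at log2 fold changes of -0.21 and 0.20 (edgeR adjusted p = 0.177 and 0.355). These 2 genes were also named after their values were seen.

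The lists of the remaining enzymes gave no call. Over all genes tested, 1.70% had an edgeR adjusted p under 0.05 and 21.2% an unadjusted p under 0.05. Of 20 detoxifying enzymes and exporters, 0 passed and 3 had an unadjusted p under 0.05. MGST1, a membrane-bound glutathione transferase, had FPKM values of 0.298, 0.394 and 1.32 in normal retina and 3.56, 3.95 and 3.39 in PVR (log2 fold change 2.37, edgeR adjusted p = 0.0770). The abundant GSTP1 and GSTM3 had log2 fold changes of 0.20 and -0.33 (edgeR adjusted p = 0.309 and 0.303). Of 13 enzymes of superoxide and hydrogen peroxide, 0 passed and 3 had an unadjusted p under 0.05, with a list median of 0.42. SOD2, the mitochondrial superoxide dismutase, was the most abundant (log2 fold change -0.28, edgeR adjusted p = 0.146), SOD1 had a log2 fold change of -0.16 (edgeR adjusted p = 0.683), and NCF1, a subunit of the oxidase of phagocytes, had the smallest p, with an FPKM between 0.145 and 0.477 in normal retina and between 0.637 and 1.64 in PVR (edgeR adjusted p = 0.131). Of 5 ferritin and iron export genes, 0 passed and 1 had an unadjusted p under 0.05, NCOA4, the receptor that delivers ferritin to autophagy (log2 fold change 1.71, edgeR adjusted p = 0.108). FTL, which has processed copies in many mammalian genomes and is uncertain for that reason, had a log2 fold change of -0.49 (edgeR adjusted p = 0.376), and PCBP1, an iron chaperone, had one of -0.21 (edgeR adjusted p = 0.294).

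**Figure D5:**
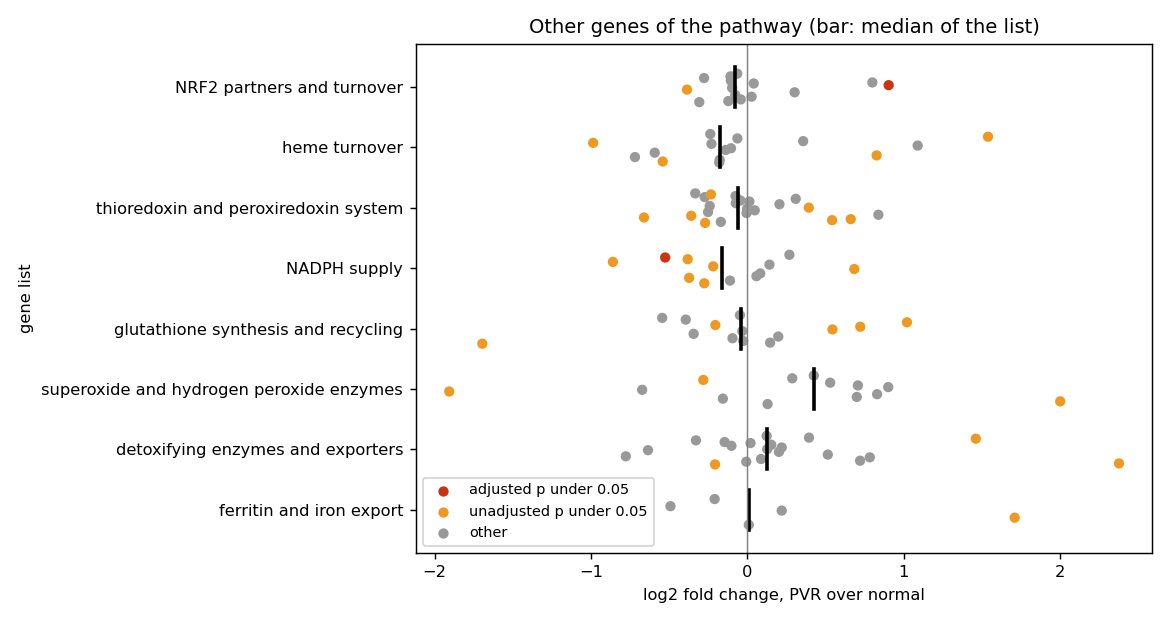
Log2 fold change, PVR over normal, of the 116 tested genes of 8 lists of the pathway (points, coloured by their p from edgeR) with the median of each list as a black bar. The medians lie between -0.18 and 0.42, and the 2 red points are NFE2L3 and ME1.

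For NFE2L2 and HMOX1, the genes with the most similar pattern over the 6 samples were searched among genes with a symbol and a mean log2 CPM of at least 3. For NFE2L2 they were SPRY3, TOX, SCN9A, LPAR6 and CCDC171, with a Pearson correlation of log2 CPM between 0.995 and 0.999. For HMOX1 they were ZFP30, MAP6D1, KPNA4, REST and RELA, with a correlation between 0.975 and 0.989. Of the genes searched, 114 of 9515 for NFE2L2 and 28 of 9516 for HMOX1 had a correlation over 0.95. The 6 points share the libraries and the difference between the groups, so these values are a description. None of the other 9 genes was among the 5 named for either. HMOX1 and SRXN1 could not be named, since their mean log2 CPM was under 3. Only the highest positive correlations were ranked, so KEAP1, at -0.93 with NFE2L2, could not be named either.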

How the data were processed

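RNA of 3 normal and 3 PVR rabbit retina samples was grouped by the sample titles. The authors trimmed reads with fastp, aligned them to OryCun2.0 with HISAT2, obtained reads per gene from htseq-count, and deposited these raw counts. The strand setting and annotation release are not given in the sources used here. The authors also deposited FPKM values, and counts divided by FPKM gave the same gene length in all samples (largest relative difference 4.24e-09), so that both rest on the same reads and on the total count.

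The tests used edgeR 4.0.16 under R 4.3.3: default filter on low counts (18697 of 28788 genes kept), TMM factors, quasi-likelihood test with condition as the only term, Benjamini-Hochberg adjustment. Genes were called at an adjusted p of 0.05 and, for a second count, also a log2 fold change of 1. The standard error is the log2 fold change divided by the square root of F, and its 95% interval uses edgeR's degrees of freedom. Similarity used log2 CPM with a prior count of 2. The authors' methods used DESeq2, here an alternative (version 1.42.0). Others were limma 3.58.1 (voom, and log2(FPKM + 1) and log2(FPKM + 0.1)), RLE and upper-quartile factors, no filter, at least 10 counts in every sample, the replicate number as a block, and leaving out 1 sample at a time. In simulated counts with 200 changed genes among 18327, the edgeR test recovered 167 with 10 false calls among 177. The planted log2 fold changes were all larger in size than those fitted for the 10 genes. No simulated sample was made to stand apart from its group. The recovery therefore does not say how often differences of the size fitted for these genes would be found. The samples of a group differed by more than counting noise (chi-square per degree of freedom 19.6 to 185).

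The genes, lists and tests were chosen with earlier results of these data known. Named were the 10 genes, in each list those past an adjusted p of 0.05, the 2 most abundant and otherwise the smallest p, the most abundant marker genes, and the 5 genes most similar to HMOX1 and NFE2L2. Other genes are said to be chosen after their values were seen. Some genes that this rule names are not reported here. Symbols were matched by name, and otherwise through RefSeq gene identifiers of the assembly mOryCun1.1, used for names only, which gave rows for NCF1, C1QA, C1QB and PDE6B. No coordinates or sequences are given. Python 3.11.15, pandas 2.3.3 and matplotlib 3.10.9 made tables and figures.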

Additional observations from a re-analysis of the deposited data

How the results depend on the processing

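Of the 10 genes, 7 kept the direction of their difference in all 16 alternatives, and none lost a call, since none had one. The number past an adjusted p of 0.05 was 0 in edgeR and became 1 with DESeq2 (KEAP1, log2 fold change -0.32) and 1 with DESeq2 on all genes with a count, a setting chosen after seeing the data (HMOX1, log2 fold change 1.28, so that 1 gene also passed the fold threshold). With a sample left out it was 0 throughout. BACH1, NQO1 and TXN, with values near 0, changed sign: on the log2(FPKM + 1) and log2(FPKM + 0.1) scales NQO1 was at 0.0279 and 0.0287 and TXN at 0.0324 and 0.0330, TXN was at 0.000555 with upper-quartile factors, and with samples left out BACH1 ranged from -0.0111 to 0.162, NQO1 from -0.237 to 0.168 and TXN from -0.128 to 0.0903. Of the 116 other pathway genes tested, 2 passed in edgeR and 18 with DESeq2, and 18 of 119 with DESeq2 on all genes with a count. DESeq2 also called more of all genes, 1798 of 18697 against 318 in edgeR. On all genes with a count it called 1756 of 24960. The number of pathway genes was 1 with upper-quartile factors, 1 with at least 10 counts in every sample and 1 on each FPKM scale. It was 0 with limma-voom, 0 with the replicate block and 0 to 5 with a sample left out, the 5 being without normal replicate 3.

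Over all genes, 318 passed the adjusted p of 0.05 and 188 both thresholds. These were 1798 and 736 with DESeq2, 1756 and 808 with DESeq2 on all genes with a count, and 92 and 82 with the replicate block, and 87 passed both on the log2(FPKM + 1) scale. With a sample left out they ranged from 22 to 650 and from 22 to 436. Every sample moved both counts by over 1.5 times: the counts past the adjusted p were 98, 76 and 557 without normal replicates 1, 2 and 3, and 22, 113 and 650 without PVR replicates 1, 2 and 3. Same-numbered samples had correlations of -0.01, 0.07 and 0.04 of their deviations from the group means. For samples of unlike number the correlations were between -0.08 and 0.04. Such values cannot show whether same-numbered samples share an animal or a batch. With the replicate block the adjusted p was 0.166 for HMOX1 (log2 fold change 1.40), 0.196 for KEAP1 and 0.209 for NFE2L2, and the block changed no call among the 10 genes. The cause of these moves was not tested. HMOX1, at 28 to 118 counts, is the gene most limited by depth.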

Other observations

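Normal replicate 3 was the furthest from the other normal samples in several of these genes, which were noticed after their values were seen. CHAC1, which degrades glutathione and is a target of the ATF4 stress pathway, had FPKM values of 0.580, 0.961 and 3.40 in the normal samples and of 0.355, 0.473 and 0.742 in PVR. MTHFD2, a mitochondrial enzyme of folate metabolism that is also induced by ATF4, had values of 9.24, 9.84 and 17.7 in normal retina and of 8.14, 6.51 and 6.52 in PVR. TXN2, the mitochondrial thioredoxin, had values of 5.28, 4.99 and 13.8 in normal retina, where replicate 3 was in the range of PVR at 16.8, 14.9 and 13.1. SOD3, the extracellular superoxide dismutase, had values of 0.513, 1.26 and 2.68 in normal retina and of 0.451, 0.174 and 0.596 in PVR. The macrophage and microglia genes, in contrast, summed to 20.8 in this sample, the lowest of all 6, and to 47.2 and 45.4 in the other normal samples.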
